A study of Mus musculus with 18 samples.

Results

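The second day of differentiation of mouse embryonic stem cells (mESCs) is described here, as the change in RNA between the day 1 and the day 2 libraries of a time course, across all genes. The comparison holds 3 libraries of day 2 and 3 of day 1, taken by the day in their labels. These 6 libraries are part of 12 in the time course (days 0, 1, 2 and 3) and of 18 in the series. The study used CRISPR-KO screens to look for genes that hold mESCs in naive pluripotency or let them leave it, and the time course follows wild-type cells through that exit. All 6 libraries come from a line labelled Rex1GFPd2-Cas9, made from E14 mESCs, with no gene knocked out. The line carries Cas9 under the human EF1α promoter at the *Rosa26* locus and a destabilised GFP with a blasticidin resistance gene at the *Rex1* locus (listed as *Zfp42* in the files), each on 1 allele, and it is a selected line. Cells of both days therefore share these insertions and 1 line as their source. In the study's methods, differentiation was started in an N2-based medium without LIF and without the MEK and Gsk3 inhibitors. The cells had been kept on fibroblast feeders with serum and LIF, or on gelatin without feeders with LIF and both inhibitors. These methods do not say which of these the time course started from, or how its cultures were made or sorted. The labels do not say that the 3 libraries of a day come from separate cultures, so p-values here measure the spread between libraries, which may be technical.

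Naive mESCs resemble the epiblast of the embryo before implantation. A network of transcription factors keeps them there, fed by LIF and Stat3 and guarded by low ERK and Gsk3 activity. When these supports are taken away, the naive factors are shut off while *Pou5f1* and other general pluripotency factors persist, and the cells pass through a formative state marked by *Otx2*, *Pou3f1*, *Fgf5* and the de novo DNA methyltransferases. The formative cells then become able to answer signals that pattern the epiblast into neural, mesodermal and germline fates.

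The authors deposited, for each library, the number of reads that kallisto estimated for each RefSeq transcript, and these estimated counts were summed to genes. The totals lay between 13456135 and 14942163 in day 1 libraries and between 12728661 and 13525384 in day 2 libraries. Levels are given as CPM when 1 gene is followed between libraries, with counts scaled to the library total times a scaling factor, TMM. They are given as TPM, divided by transcript length and without TMM, when genes are compared or mean levels of days are listed. Changes in TPM can therefore differ from the log2 fold changes, which use TMM. A library in which a gene has no count could still hold up to 3 counts of it, which is between 0.196 and 0.24 CPM before TMM, for counting error only. The day 1 libraries lay closer to each other than the day 2 libraries did. A chi-square per gene between pairs, near 1 for sampling noise alone, was 1.83 to 2.88 on day 1 and 3.83 to 8.42 on day 2. Library 3 of day 2 stood apart on the side of day 3. On the first principal component of all 12 libraries it lay at 59.7, with the other day 2 libraries at 45.8 and 47.5 and the day 3 libraries at 75.5 to 81.8.

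Markers of the labelled cell type were present on both days. The 5 markers of mESCs and epiblast (*Pou5f1*, *Sox2*, *Lin28a*, *Sall4* and *Utf1*) summed to between 3380 and 3520 TPM in day 1 libraries and between 2590 and 2760 TPM in day 2 libraries. Among the other cell types, 7 trophoblast markers summed to at most 7.26 TPM, with *Tpbpa* and *Prl3d1* at 0 in all 6 libraries, and 9 primitive endoderm markers summed to at most 10.6 TPM. The 10 feeder fibroblast markers summed to 12.6 to 15.3 TPM on day 1 and 30.5 to 33.3 TPM on day 2, with 3 higher and 2 lower. Mesoderm markers stood at most at 2.93 TPM in sum, and 6 neural markers summed to 16.7 to 19.7 TPM on day 1 and 62.7 to 78.3 TPM on day 2, mostly through *Tubb3*. The part of such markers in the results was not tested. In such bulk libraries, fewer cells of a type and less RNA per cell cannot be told apart.

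The second day changed the level of most expressed genes. After a filter on low counts, 14382 genes were tested, and 8931 of them (62.1%) differed between day 2 and day 1 by the quasi-likelihood test of edgeR at an adjusted p under 0.05. Of all genes tested, 4677 (32.5%) were higher on day 2 and 4254 (29.6%) lower, and the median log2 fold change was 0.02. Changes of at least 2-fold were called for 3047 genes (21.2%), and here rises outnumbered falls, with 2076 genes higher (14.4%) and 971 lower (6.75%). At least 8-fold changes were called for 244 rises and 140 falls. All 3 day 2 libraries lay above or below all 3 day 1 libraries in 9830 genes (68.3%). With limma on log2(TPM + 1), which shifts the median of all genes by 0.107 on the log2 scale, the split of calls was 5639 higher and 3203 lower, so the balance of rises and falls depends on the scaling. Without library 3 of day 2, 4292 genes were higher and 3999 lower.

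**Figure D1:**
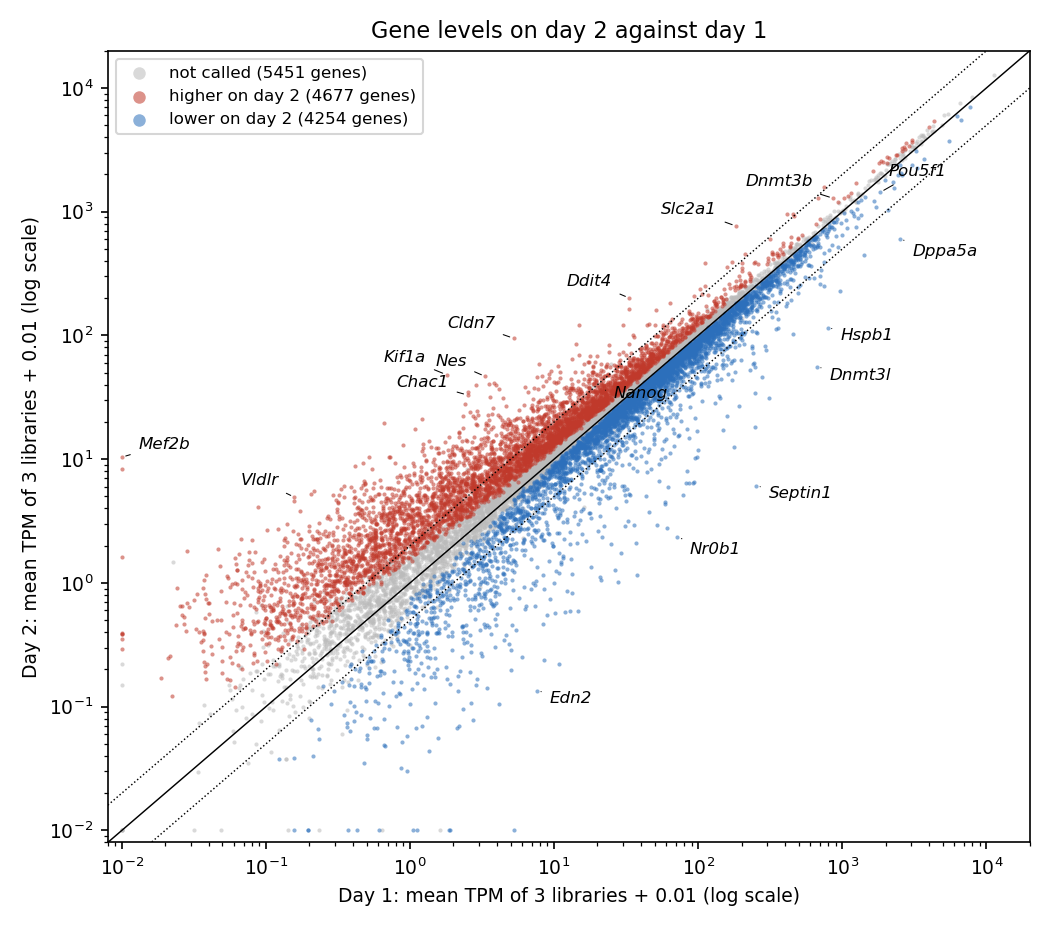
Mean TPM of each tested gene on day 1 (horizontal) and on day 2 (vertical), both over 3 libraries with 0.01 added and on log axes. Red points are the 4677 genes called higher on day 2, blue points the 4254 called lower and grey points the others. The solid line marks equal levels and the dotted lines a 2-fold difference, and the red cloud is broad at low TPM while the blue cloud reaches further at high TPM.

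Rises and falls came from different levels of expression. The genes called higher had a median of 4.47 TPM on day 1 and 9.68 TPM on day 2, whereas the genes called lower had 39.1 and 28.3 TPM. Among genes with a mean below 1 TPM, 35.6% rose at least 2-fold and 11.2% fell at least 2-fold, and among those between 1 and 10 TPM these shares were 25.6% and 9.15%. Between 10 and 100 TPM they were 4.74% and 4.45%. Of the 1690 genes at 100 TPM or more, 12 rose (0.71%) and 80 fell (4.73%) at least 2-fold. The filter on low counts keeps a gene with enough counts on 1 day alone. Low genes could therefore enter through the day on which they were high, which limits what the shares of the low classes mean. With at least 10 counts required in all 12 libraries, 1570 genes changed at least 2-fold in place of 3047. The calls were spread over the genome, with 28.6% (chromosome 16) to 36.4% (chromosome X) of the tested genes of a chromosome higher and 24.2% (chromosome 12) to 32.9% (chromosome 11) lower.

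**Figure D2:**
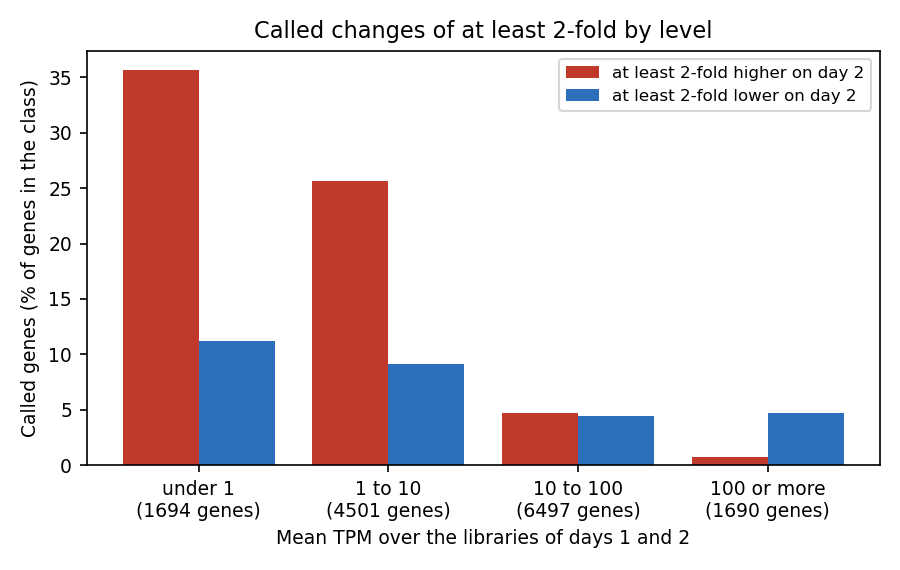
Share of tested genes called at least 2-fold higher (red) or lower (blue) on day 2, in 4 classes of mean TPM over the 6 libraries of days 1 and 2. Higher genes make up 35.6% of the class below 1 TPM and 0.71% of the class at 100 TPM or more. Low genes could pass the filter through 1 day alone.

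The second day differed from its neighbours in the change of many genes. Its change differed from that of the first day in 8388 genes (58.3%) and from that of the third day in 4741 genes (33%), by edgeR tests of the difference between steps. These tests count a difference in size as well as in direction. For scale, 8754 genes (60.9%) were called between days 0 and 1 and 4525 (31.5%) between days 2 and 3, and the SD of the log2 fold change over genes was 1.12, 1.08 and 0.597 for the steps from day 0 to 1, 1 to 2 and 2 to 3. These steps share libraries with the second day. Days 0 and 3 do not, and on day 3, 81.8% of the genes called higher on day 2 lay above day 0 and 82% of those called lower lay below it, against 49.2% and 50.8% of all genes tested. Over the 14382 genes, Spearman's rho between the 2 log2 fold changes was 0.64, where genes are not independent replicates and share length and base composition.

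The largest rises were led by *Mef2b* and *Stmn4*, which had no counts on day 1. The 15 largest, among called genes with enough counts and with no overlap between days, were *Mef2b*, *Stmn4*, *Grin1*, *Snph*, *Vldlr*, *Klhl14*, *Moxd1*, *Acta1*, *Kif1a*, *Fut1*, *Piezo2*, *Jph3*, *Fat3*, *Rgl3* and *Marveld3*. *Kif1a*, a kinesin that carries synaptic vesicle precursors along axons, was the most abundant of them by TPM on day 2. It stood at 8.78, 9.87 and 7.01 CPM on day 1 and 171, 174 and 294 CPM on day 2, with library 3 the highest, a log2 fold change of 4.63 (SE 0.255, edgeR adjusted p = 2.16e-07). *Mef2b*, a transcription factor of the MEF2 family, had 0 counts in all day 1 libraries and 2.24, 8.12 and 9.42 CPM on day 2. Its log2 fold change of 9.46 (SE 2.56, edgeR adjusted p = 0.0168) is uncertain in size because of these 0 counts. It had a mean of 3.76 TPM on day 0, so its RNA was not new on day 2. Its day 2 mean is at least about 30.5-fold higher when day 1 is set to 3 counts per library, with library 1 of day 2 well below that mean. Such limits are approximate, since the CPM use TMM scaling and the 3 counts do not. *Stmn4*, a stathmin that binds tubulin, had 0 counts on day 1 as well and 3.28, 3.87 and 7.39 CPM on day 2, at least about 22.4-fold higher. *Grin1*, an NMDA receptor subunit, had at most 2 counts in a day 1 library and rose to 4.55, 4.71 and 3.35 CPM, at least about 19.5-fold. *Snph*, which anchors mitochondria in axons, rose from 0.223, 0.304 and 0.0815 to 9.27, 9.72 and 10.7 CPM. *Piezo2*, a mechanically gated ion channel, rose 24.3-fold, *Fat3*, an atypical cadherin, 23.2-fold and *Marveld3*, a tight junction protein, 20.1-fold. That the days did not overlap was required by the rule that named these genes. Most of them remained low next to other genes, with *Snph* at 4.12 TPM and *Kif1a* at 48.1 TPM on day 2.

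The largest falls were led by *Edn2*, and they included 1 naive factor. In order, those reported here were *Edn2*, *2410137M14Rik*, *Septin1*, *Atp1a4*, *Phf11d*, *Nr0b1*, *H2-M5*, *Sytl3*, *Smyd1*, *Dusp27*, *4930591A17Rik*, *Arl14epl*, *Sult6b1* and *Acsbg3*. *Edn2*, the vasoactive peptide endothelin 2, fell from 5.21, 5.32 and 4.65 CPM to at most 2 counts in a library, at least 21.2-fold. *Septin1*, of the septin family of filament-forming GTPases, fell from 185, 189 and 205 to 3.99, 6.15 and 2.8 CPM, a log2 fold change of -5.48 (SE 0.148, edgeR adjusted p = 2.76e-13). *Dusp27*, a pseudophosphatase known from muscle, fell from 130.3, 127 and 160.4 to 5.59, 7.44 and 4.83 CPM, and *Smyd1*, a methyltransferase of muscle, fell 27.1-fold. Most of these genes were already expressed on day 0, and some rose first. *Edn2* had a mean of 0 TPM on day 0 and 7.6 TPM on day 1, whereas *Septin1* stood at 409 TPM on day 0, 252 on day 1, 6.07 on day 2 and 2.45 on day 3.

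**Figure D3:**
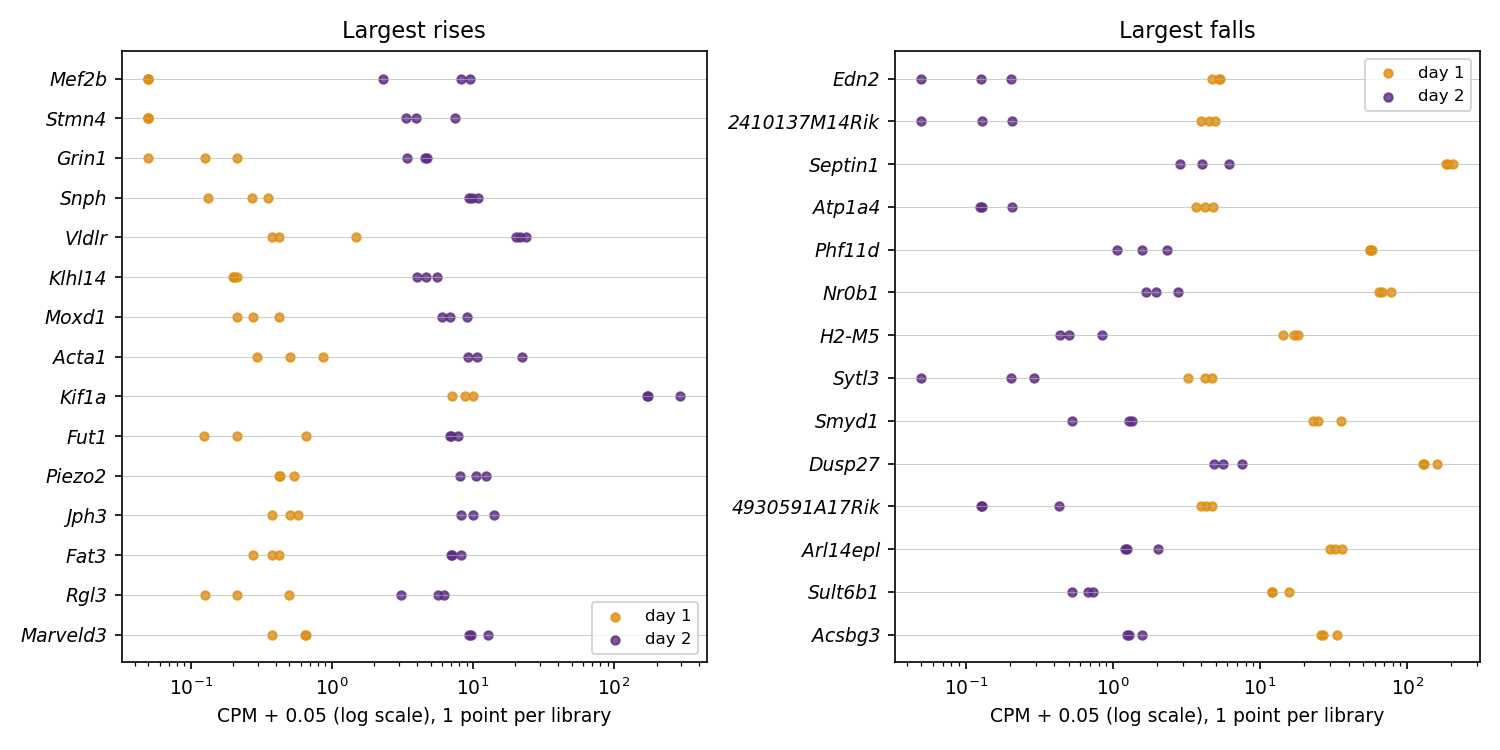
CPM of the 15 largest rises (left) and of the largest falls reported here (right), with 0.05 added and on log axes, 1 point per library and 3 libraries per day. Day 1 is orange and day 2 purple, and a count of 0 is drawn at 0.05. The points of the 2 days do not cross because the rule that named these genes requires it.

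Some genes passed between near absence and clear expression. Of the called genes, 42 had at most 3 counts in each day 1 library and at least 1 CPM in each day 2 library, and 26 showed the opposite. The first group held adhesion and surface genes such as *Itgb8* (integrin β8), *Efna1* (ephrin A1), *Gjb2* (connexin 26), *Scara3* and the serine protease gene *Tmprss2*, as well as *Zfp521* and *Rfx6*, which code for transcription factors, and *Ahrr*, the repressor of the aryl hydrocarbon receptor. Their rises were at least about 5.67-fold (*Vstm5*) to at least about 30.5-fold (*Mef2b*), limits that are approximate as above. The second group held *Hes3*, a repressor of the Hes family, *Cldn2*, the claudin of leaky epithelia, *Cdx4*, a caudal homeobox gene, *Il17b*, *Magea4*, *Nlrp4a* and *Tmprss11d*, with falls of at least 4.86-fold (*Akr1c13*) to at least 21.2-fold (*Edn2*).

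By TPM, the largest gains lay mostly in the translation machinery and the largest losses in naive, chaperone and cytoskeleton genes. *Ldha*, lactate dehydrogenase A, gained most outside translation, from 742 to 1594 TPM. The other 9 of the 10 largest gains were *Rps2*, *Rpl23a*, *Rpl38*, *Rplp0*, *Rps10*, *Rpl26* and *Eef2*, of the translation machinery, *Eno1b*, an enolase, and *Mif*, a cytokine, with log2 fold changes of 0.18 to 0.36. A ranking by the difference in TPM favours abundant genes. Of 87 cytosolic ribosomal protein genes tested, 18 rose (20.7%, against 32.5% of all genes) and 5 fell, with a median log2 fold change of 0.05. The largest loss was that of *Dppa5a*, an RNA-binding protein of naive cells, from 2502 to 601 TPM. Chaperones lost much as well. *Hspa8* fell from 5493 to 3713 TPM, *Hsp90aa1* from 3303 to 2238 TPM and the small heat shock protein gene *Hspb1* from 790.5 to 116 TPM. The actin-binding gene *Pfn1* (profilin 1) and *Actb* (β-actin) fell by 0.67 and 0.57 on the log2 scale, and *Mt2*, a metallothionein, by 1.11. *Hspb1* stood at 326, 335 and 375 CPM on day 1 and 46.4, 41.5 and 52.1 CPM on day 2, the steepest fall of these.

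The naive network went on falling. Of 24 naive genes, all tested, 22 fell (91.7%, against 29.6% of all genes) and 1 rose, with a median log2 fold change of -1.96, against 0.02 over all genes. *Nr0b1* (Dax1), an orphan nuclear receptor that restrains Oct4 activity, stood at 64, 67.6 and 77.8 CPM on day 1 and 1.92, 2.73 and 1.63 CPM on day 2, a log2 fold change of -5.05 (SE 0.178, edgeR adjusted p = 2.63e-12). *Esrrb*, the nuclear receptor downstream of Gsk3 inhibition, fell from 69, 72.2 and 83.9 to 5.75, 7.97 and 5.45 CPM, a log2 fold change of -3.55 (SE 0.116, edgeR adjusted p = 7.78e-14). The days were far apart in both genes, with no overlap. *Nr5a2* (Lrh-1), which activates *Pou5f1* in naive cells, fell from 10.3, 10.2 and 13 to 0.959, 0.759 and 0.623 CPM. *Zfp42*, the gene that carries the GFP reporter, fell from 142, 148 and 170.3 to 20, 23.3 and 17.7 CPM, so that its mean TPM passed from 775 on day 0 over 157 and 22.5 to 12.8 on day 3. *Klf2*, a Krüppel-like factor of naive cells, fell 4.96-fold, *Tcl1* 8.16-fold (a log2 fold change of -3.03, and -2.44 without library 2 of day 2), *Fbxo15* 5.07-fold, *Dppa5a* 4.5-fold and *Sox15* 3.76-fold.

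The naive genes differed in when they fell. *Klf4*, *Tbx3*, *Tfcp2l1* and *Prdm14* had lost most of their RNA by day 1, and stood there at 4.35, 1.52, 6.2 and 0.555 TPM after 196, 115, 177 and 34.5 TPM on day 0. The second-day log2 fold changes of the first 3 were -1.20, -1.17 and -1.60, and *Prdm14* fell to at most 2 counts in a library. *Dnmt3l*, *Dppa5a* and *Mybl2*, in contrast, were high on day 1, at 665, 2502 and 356 TPM, and reached 55.6, 601 and 114 TPM on day 2. *Fgf4*, the FGF ligand that mESCs make for themselves, was at 169.9, 238, 82.9 and 32.5 TPM on days 0 to 3.

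*Nanog* was the naive gene that rose, and *Bmp4* the 1 that did not pass the test. *Nanog*, a homeobox factor central to the naive state and expressed again in the posterior epiblast of the embryo, stood at 22.7, 23.7 and 26.1 CPM on day 1 and 37.6, 30.6 and 47.6 CPM on day 2, a log2 fold change of 0.68 (SE 0.232, edgeR adjusted p = 0.0294). All 3 day 2 libraries lay above all day 1 libraries, and library 3 of day 2 was the highest. The call was near the threshold, and the log2 fold change of *Nanog* was 0.49 (edgeR adjusted p = 0.132) without that library, with adjusted p of 0.0803 and 0.0696 without libraries 1 and 2 of day 1, 0.0545 without library 1 of day 2 and 0.0524 without the filter on low counts. Its mean level was 782 TPM on day 0, 21.3 on day 1, 36.4 on day 2 and 127 on day 3. Rises and falls within one list also met in the Klf factors, where *Klf2*, *Klf4* and *Klf5* fell and *Klf6*, *Klf7* and *Klf15* rose, with log2 fold changes of 0.87, 0.68 and 0.77.

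General pluripotency factors fell too, with a smaller median. Of 14 genes, 13 fell (92.9%, against 29.6% of all genes) and 1, *Lin28a*, did not pass the test, and the median log2 fold change was -0.77. *Pou5f1* (Oct4) stood at 1247, 1284 and 1235 CPM on day 1 and 955, 929 and 836 CPM on day 2. The days did not overlap, and the fall was small, with a log2 fold change of -0.47 (SE 0.0729, edgeR adjusted p = 2.04e-05) and 1435 TPM left. *Sox2*, its partner on DNA, fell 3.04-fold, from 227, 220.1 and 246 to 71.2, 85.6 and 70.9 CPM. *Tdgf1* (Cripto), a coreceptor of Nodal, fell 4.23-fold from 298 to 75.9 TPM, and *Foxd3* and *Dppa2* fell 2.92-fold and 3.03-fold. *Utf1*, *Dppa4* and *Zfp281*, which had risen by day 1, fell by 0.62, 0.82 and 0.91 on the log2 scale. *Sall4*, *Rif1*, *Nacc1* and *L1td1* fell by 0.37 to 0.73 on this scale. *Lin28a*, which blocks let-7 maturation, was at 436 and 494 TPM, a log2 fold change of 0.07 (SE 0.0773, edgeR adjusted p = 0.454).

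Genes of the LIF-Stat3 pathway went in both directions. Of 13 genes tested (14 listed), 4 rose (30.8%) and 5 fell (38.5%), against 32.5% and 29.6% of all genes. The receptor gene *Lifr* fell 4.78-fold, from 53.7, 50.5 and 57 to 13.1, 10.6 and 9.96 CPM, with no overlap, and its signalling partner *Il6st* (gp130) and *Stat3* fell by 0.48 and 0.38 on the log2 scale. *Socs3* and *Junb*, known targets of the pathway, rose by 0.94 and 1.07, and stood at 4.26 and 11.1 TPM on day 2 after 64.9 and 15.5 TPM on day 0. *Lif* itself rose from 2.57 to 4.81 TPM.

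**Figure D4:**
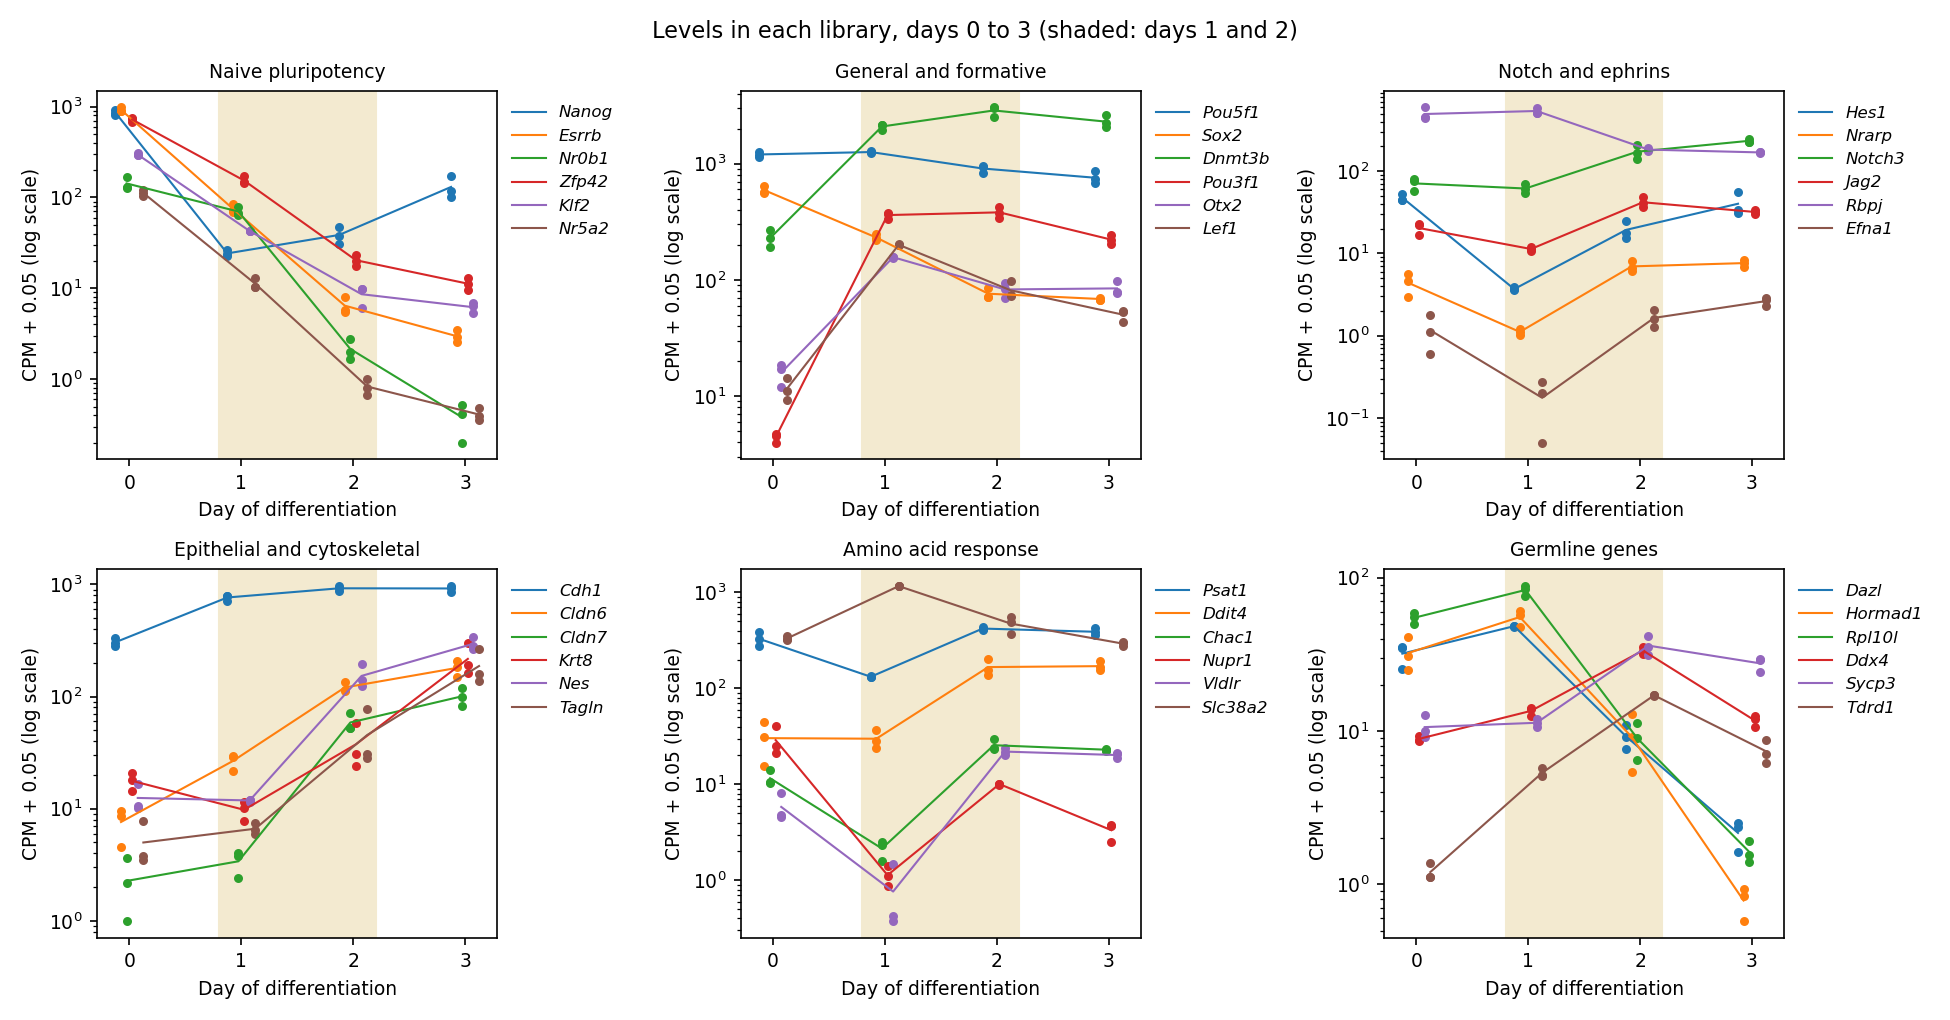
CPM of selected genes in each of the 12 libraries of the time course, with 0.05 added and on log axes, where points are libraries, lines join the day means, and days 1 and 2 are shaded. Naive genes other than *Nanog* fall between days 1 and 2, *Pou3f1* does not pass the test, and *Hes1*, *Nrarp*, *Chac1*, *Vldlr* and *Cldn7* rise.

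Formative and epiblast genes, most of which had risen by day 1, went in both directions. Of 24 genes tested, 12 rose (50%, against 32.5% of all genes) and 9 fell (37.5%, against 29.6%), and the median log2 fold change was 0.17, after 1.67 on the first day. *Fgf5* and *Pou3f1* (Oct6), which define the state, were already high on day 1. *Fgf5* was at 68.8, 72.4 and 57.8 CPM on day 1 and 74.1, 84.2 and 63.4 CPM on day 2, and *Pou3f1* at 369, 377 and 335 CPM on day 1 and 379, 423 and 339 CPM on day 2. Neither passed the test, with log2 fold changes of 0.16 (SE 0.0961, edgeR adjusted p = 0.169) and 0.08 (SE 0.0788, edgeR adjusted p = 0.403), and in both genes the days overlapped. *Otx2*, the homeobox factor that opens formative enhancers, fell from 157, 155 and 158 to 83.6, 94.4 and 69.7 CPM, a log2 fold change of -0.92 (SE 0.13, edgeR adjusted p = 4.96e-05). The factors *Lef1*, *Tcf15*, *Grhl2* and *Etv4* fell as well, with log2 fold changes of -1.30, -1.74, -1.65 and -0.82. *Tcf15*, which is known to mark cells primed to leave the naive state, stood at 25.8, 71.5, 23.1 and 7.65 TPM on days 0 to 3.

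Epithelial genes were among the largest rises of this list. *Cldn6*, a claudin of the early embryo, rose from 29, 29.2 and 21.4 to 111, 115 and 135 CPM, and the keratin genes *Krt8* and *Krt18* rose 3.84-fold and 2.4-fold. *Krt8* was at 23.8, 30.7 and 57.9 CPM on day 2, with library 3 above the others, and no day 2 library reached down to day 1. *Sfrp2*, a secreted Wnt binder, rose 2.85-fold and the kinase gene *Pim2* 1.96-fold, to 959 TPM. The transcription factor genes *Zic2*, *Sox3*, *Zic5*, *Sox4* and *Sox12* rose by 0.74, 0.57, 0.38, 0.27 and 0.19 on the log2 scale. *Dnmt3b*, a de novo DNA methyltransferase, rose to 1283 TPM, the highest level of the list. The octamer ATGCAAAT, in either strand, was found in the promoters of 3 of 9 of the genes of this list that rose and that have a promoter in the RefSeq table (*Sox12*, *Sfrp2* and *Pim2*), in 0 of 5 that fell and in 1.7% of the genes tested. In the naive list it was in 1 of 17 genes with a promoter (*Zfp42*, which fell).

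FGF and ERK genes are read together, since FGF4 acts through ERK to drive exit. Of 21 FGF ligand, receptor and adaptor genes tested (22 listed), 4 rose (19%) and 7 fell (33.3%), against 32.5% and 29.6% of all genes. Among the ligands, *Fgf4* fell from 399, 418 and 394 to 132, 154 and 105 CPM, a log2 fold change of -1.63 (SE 0.226, edgeR adjusted p = 0.0002), and *Fgf15* fell 2.48-fold. *Fgf13*, an intracellular member of the family, rose 4.66-fold. *Fgf8* was at 0.298, 0.683 and 0.245 CPM on day 1 and 0.559, 1.06 and 1.4 CPM on day 2 and did not pass the test. Of the receptors, *Fgfr1* rose from 41.5 to 60.4 TPM, and *Fgfr2*, *Fgfr3* and *Fgfr4* did not pass. Of 21 ERK feedback and target genes tested (22 listed), 5 rose (23.8%) and 9 fell (42.9%), with a median log2 fold change of -0.12. Without library 1 of day 1, 9 of the 21 were called in place of 14. *Spry4*, *Spry2*, *Dusp4*, *Etv4* and *Etv5*, induced by ERK and in part its brakes, fell by 0.65 to 0.97 on the log2 scale, whereas *Dusp6*, *Spry1* and *Spred3*, brakes too, rose by 0.28, 0.36 and 1.22. The calls of *Spry4* and *Dusp6* were lost with a replicate block (edgeR adjusted p = 0.0519 and 0.0579) and without most single libraries. *Myc* fell 2.5-fold, from 64.8 to 28 TPM.

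Nodal genes were called at shares near those of all genes. Of 19 tested (22 listed), 7 rose (36.8%) and 6 fell (31.6%), against 32.5% and 29.6% of all genes. The ligand genes *Nodal* and *Gdf3* fell, with log2 fold changes of -1.04 and -0.93, and the coreceptor gene *Tdgf1* fell as well. *Inhbb* fell to at most 3 counts in a library. The receptor genes *Acvr1b*, *Acvr2a* and *Acvr2b* rose by 0.91, 0.52 and 0.41, as did the protease gene *Furin* (1.62) and *Smad3* (1.29). *Smad2*, which acts beside *Smad3*, fell by 0.47. *Lefty1*, a target and an inhibitor of Nodal, was at 23.1, 22.2 and 19.1 CPM on day 1 and 27.7, 37.6 and 74 CPM on day 2. All day 2 libraries lay above all day 1 libraries, but they spread widely and the gene did not pass, with a log2 fold change of 1.11 (SE 0.449, edgeR adjusted p = 0.0589). *Foxh1*, the partner of Smad2 and Smad3 on DNA, did not pass the test, at 150.1 and 173 TPM.

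Several BMP receptor and Smad genes rose. Of 21 tested (22 listed), 8 rose (38.1%) and 3 fell (14.3%), against 32.5% and 29.6% of all genes, with a median log2 fold change of 0.32. *Bmp7* rose from 2.08, 1.14 and 1.39 to 6.23, 7.29 and 10 CPM, and *Bmpr1b* from 0.447, 0.228 and 0.571 to 4.87, 4.02 and 5.37 CPM. Both were low on day 1, and neither overlapped between days. *Bmpr2*, *Acvr1*, *Smad1* and *Smad5* rose by 0.41 to 0.66 on the log2 scale. *Id1* and *Id3*, immediate targets of BMP, fell by 0.71 and 0.42, with calls near the threshold (edgeR adjusted p = 0.0446 and 0.0434). That of *Id1* was lost with DESeq2 (adjusted p = 0.0848) and upper-quartile scaling (adjusted p = 0.0721), and that of *Id3* with upper-quartile scaling (adjusted p = 0.0963), the stricter filter, 6 libraries only and limma. *Bmp4*, which supports naive cells, stood at 3.2 and 2.24 TPM and did not pass.

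Wnt genes were called at shares near those of all genes and went in both directions. Of 32 tested (36 listed), 12 rose (37.5%) and 8 fell (25%), against 32.5% and 29.6% of all genes, and the median log2 fold change was 0.25. *Notum*, an enzyme that inactivates Wnt ligands, fell from 12.4, 13 and 14.8 to 0.479, 0.835 and 1.25 CPM, a log2 fold change of -3.95 (SE 0.244, edgeR adjusted p = 1.76e-10). The target genes *Axin2* and *Lef1* fell by 0.80 and 1.30. The E3 ligase gene *Rnf43*, which removes Wnt receptors, rose to 1.28, 0.683 and 1.79 CPM from 0.0744, 0.152 and 0 CPM, where day 1 lies at the limit of a count of 0. *Nkd2*, *Sfrp2*, *Nkd1* and *Sfrp1*, inhibitors of the pathway, rose by 2.45, 1.51, 1.09 and 1.01, the receptor genes *Lrp5* and *Fzd2* by 1.19 and 1.12, and the ligand gene *Wnt3*, needed for the primitive streak, by 2.57, to 1.45 TPM. *Tcf7l1*, which represses naive genes until Gsk3 is inhibited, did not pass, at 95.9 and 97.2 TPM. The letters CTTTGNN were in the promoters of 9 of the 22 Wnt genes with a promoter in the table and of 51.5% of the genes tested.

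Notch genes rose. Notch receptors are cut after contact with a ligand on a neighbouring cell, and the freed part activates Hes and Hey repressors through Rbpj. Of 18 genes tested (21 listed), 14 rose (77.8%, against 32.5% of all genes) and 3 fell, with a median log2 fold change of 1.11 after -0.21 on the first day. The ligand gene *Jag2* rose from 10.6, 11.3 and 11.7 to 41.1, 36.1 and 47.9 CPM, and *Dll3*, *Dll4* and *Jag1* rose by 1.61, 1.65 and 0.89 on the log2 scale, whereas *Dll1* was lower by 0.48 (edgeR adjusted p = 0.0439), a call lost under several alternatives, with adjusted p of 0.0821 under upper-quartile scaling and 0.0952 with limma on log2(TPM + 1). Of the receptors, *Notch3* rose from 69.1, 61 and 53.9 to 164, 142 and 210.2 CPM, a log2 fold change of 1.49 (SE 0.164, edgeR adjusted p = 1.72e-05), *Notch2* and *Notch1* rose by 0.77 and 0.51, and *Notch4* did not pass. Among the targets, *Hes1* rose from 3.8, 3.49 and 3.59 to 17.7, 15.3 and 24.6 CPM, a log2 fold change of 2.40 (SE 0.319, edgeR adjusted p = 7.47e-05), and *Nrarp*, a feedback inhibitor, from 0.967, 1.06 and 1.14 to 6.63, 6 and 8.02 CPM, a log2 fold change of 2.69 (SE 0.252, edgeR adjusted p = 3.21e-08). Day 1 was the lowest of the 4 days for both, and all day 2 libraries lay above all day 1 libraries. *Hey1* and *Hes6* rose by 1.49 and 1.34, and *Rbpj* itself fell 2.95-fold, from 172 to 61.7 TPM.

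Genes for cell contact and guidance rose with them. Ephrins and Eph receptors, which signal in both directions between touching cells, had 19 genes tested of 22 listed, and all passed the test, 16 higher (84.2%, against 32.5%) and 3 lower, with a median of 1.11. *Efna1* had at most 3 counts in each day 1 library and 2, 1.21 and 1.56 CPM on day 2, at least about 7.36-fold higher. *Epha8*, *Efna5*, *Epha10*, *Ephb1*, *Ephb6* and *Ephb2* rose by 1.71 to 2.71 on the log2 scale, and *Epha1* rose from 19.4 to 42.2 TPM. *Epha2*, the most abundant receptor of the family in day 1 cells, fell from 128, 121 and 125 to 21.2, 26 and 27.9 CPM, a log2 fold change of -2.32 (SE 0.0837, edgeR adjusted p = 8.33e-14), and *Efnb2* and *Epha4* fell by 1.13 and 1.12. By TPM, *Epha1* passed *Epha2* as the highest receptor, with 42.2 and 12.1 TPM on day 2 against 19.4 and 55.7 TPM on day 1. Of 27 semaphorin and plexin genes tested (29 listed), 15 rose (55.6%) and 4 fell (14.8%), against 32.5% and 29.6% of all genes. The secreted *Sema3b*, *Sema3c* and *Sema3e* rose by 3.32, 2.40 and 1.71. *Plxna4* fell by 2.93, to 0.0718 TPM.

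Epithelial junction genes rose further. Of 26 cadherin and epithelial-mesenchymal genes, 15 rose (57.7%) and 5 fell (19.2%), against 32.5% and 29.6% of all genes, with a median of 0.29. *Cldn7* rose from 3.94, 3.72 and 2.36 to 52.1, 51.9 and 72 CPM, a log2 fold change of 4.12 (SE 0.299, edgeR adjusted p = 9.81e-07), with no overlap. *Cldn3*, *Ocln* (occludin) and the polarity gene *Crb3* rose by 1.59, 1.60 and 2.46, and *Krt19* by 2.97. *Cdh1* (E-cadherin), the most abundant cadherin, rose from 794, 783 and 719 to 866, 939 and 968 CPM, a log2 fold change of 0.27 (SE 0.0665, edgeR adjusted p = 0.00154), and *Epcam* and *Esrp1*, which also mark epithelia, rose by 0.25 and 0.34. *Zeb1* and *Snai1*, repressors of *Cdh1*, fell by 1.86 and 0.78, and *Cdh2* (N-cadherin) by 0.39. *Zeb2*, the other Zeb repressor, rose by 1.15, to 1.49 TPM. *Vim* (vimentin) did not pass, at 83.8 and 87.2 TPM.

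The matrix these cells make changed as well. Of 32 collagen genes tested (44 listed), 15 rose (46.9%) and 4 fell (12.5%), against 32.5% and 29.6% of all genes, with a median of 0.54. The 15 that rose stayed below 10 TPM on day 2. With at least 10 counts required in all 12 libraries, 10 collagen genes were called in place of 19. *Col9a2*, *Col6a2* and *Col9a3* rose by 2.88, 2.50 and 2.02 (*Col9a2* by 3.53 without library 1 of day 1), whereas *Col18a1*, the most abundant collagen at 242 TPM on day 1, fell by 0.33. The basement membrane laminin gene *Lamc1* fell 2.01-fold and *Lama3* 4.51-fold, while *Lamb1*, *Lama5* and *Lamb2* rose by 0.51, 0.61 and 0.71. *Lamb3* rose from 0.447, 0.304 and 0.326 to 1.2, 2.28 and 3.35 CPM. *Fn1* (fibronectin) fell from 148 to 54.1 TPM, a log2 fold change of -1.56 (SE 0.0849, edgeR adjusted p = 1.01e-10). Of 28 protocadherin genes tested (70 listed), 14 rose (50%) and 3 fell (10.7%), against 32.5% and 29.6% of all genes. With at least 10 counts required in all 12 libraries, 5 protocadherin genes were called in place of 17. *Pcdh18* rose by 2.29, and the clustered Pcdhg genes share 3′ exons, so that their separate values are uncertain. Of 22 integrin genes tested (31 listed), 5 rose (22.7%) and 6 fell (27.3%), against 32.5% and 29.6% of all genes.

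Early neural genes were called at about the shares of all genes, with large rises of *Nes* and *Tubb3* among them. Of 25 tested (33 listed), 9 rose (36%) and 7 fell (28%), against 32.5% and 29.6% of all genes, with a median of 0.28. *Nes* (nestin), an intermediate filament of neural progenitors that is also found in epiblast cultures, rose from 11.5, 11.9 and 12 to 124, 139 and 195 CPM, a log2 fold change of 3.70 (SE 0.231, edgeR adjusted p = 4.45e-07). *Tubb3*, a neuronal β-tubulin, rose from 12.9, 14.6 and 10.2 to 50.9, 55.3 and 62.2 CPM, after 112 TPM in the cells of day 0 and 13.3 TPM on day 1. Both separated the days fully. *Irx3* rose 4.95-fold and *Zfp521*, which drives neural entry, had at most 3 counts in each day 1 library and rose at least about 16-fold. The neural fate factors *Sox1* and *Pax6* did not pass the test, at 2.33 and 1.11 TPM on day 2. *En2* and *Sox21* fell, with log2 fold changes of -1.95 and -1.86.

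Most primitive streak genes did not pass the test. Of 13 tested (20 listed), 3 rose (*Mixl1*, *Tbx6* and *Wnt3*, 23.1%, against 32.5% of all genes) and 0 fell, and without library 1 of day 2, 6 were called. *Mixl1* and *Tbx6* reached 0.76 and 1.03 TPM, and *T* (brachyury), *Eomes* and *Foxa2* did not pass, at 0.5, 2.29 and 0.649 TPM. Of 20 primitive endoderm genes tested (24 listed), 3 rose (15%) and 6 fell (30%), against 32.5% and 29.6% of all genes. *Dab2*, an endocytic adaptor, rose from 1.86 to 6.11 TPM, *Gata6* fell to 0.344 TPM, and *Gata4* and *Sox17* did not pass. Of 8 trophoblast genes tested (14 listed), *Krt7* rose, to 4.49 TPM, and *Gata3*, *Tead4* and *Esx1* fell. Of 14 feeder fibroblast genes tested (18 listed), 6 rose (42.9%) and 2 fell (14.3%), against 32.5% and 29.6% of all genes. *Thy1* rose from 4.23 to 21.8 TPM, *Loxl1* from 0.714 to 3.74 TPM and *Tagln* (transgelin) from 7.84 to 58.9 TPM. The log2 fold change of *Tagln* was 2.78, and 2.16 without library 3 of day 2, which was the highest. The collagen genes *Col1a1* and *Col3a1* did not pass, at 0.942 and 0.193 TPM on day 2. The part of other cells in these changes was not tested. Of 39 Hox genes listed, 6 were tested and 1, *Hoxc4*, fell, with at most 4 counts in any of the 6 libraries.

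The DNA methylation machinery was remodelled. Of 18 genes, 12 fell (66.7%, against 29.6%) and 3 rose, with a median of -0.55. *Dnmt3l*, the inactive cofactor of the de novo methyltransferases, stood at 593, 558 and 623 CPM on day 1 and 51.9, 55 and 30.9 CPM on day 2, a log2 fold change of -3.69 (SE 0.213, edgeR adjusted p = 3.01e-07). It had risen to 665 TPM by day 1 and was at 55.6 TPM a day later. *Dnmt3a* fell 2.33-fold, from 200.5 to 91.7 TPM, while *Dnmt3b* rose from 2155, 2158 and 1935 to 3007, 3048 and 2529 CPM, a log2 fold change of 0.46 (SE 0.12, edgeR adjusted p = 0.006). Both had risen in the first day, by 4.21 and 3.19 on the log2 scale, which shares the day 1 libraries. The maintenance genes *Dnmt1* and *Uhrf1* fell by 0.52 and 0.93. Of the Tet dioxygenases, which oxidise methylcytosine, *Tet1* and *Tet2* fell by 1.15 and 1.98 and *Tet3* rose by 0.69. *Zfp57*, which guards methylation at imprints, fell from 248, 268 and 309 to 65.6, 65.4 and 64.4 CPM.

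Polycomb genes fell in number but little in size. Of 32 tested, 19 fell (59.4%, against 29.6%) and 4 rose, with a median of -0.25. The core subunit genes of PRC2, *Suz12*, *Eed* and *Ezh2*, fell by 0.73, 0.70 and 0.42 on the log2 scale, and its accessory genes *Jarid2*, *Mtf2* and *Epop* by 0.92, 0.83 and 0.86. *Ezh1*, the alternative methyltransferase, rose by 0.70, and of the PRC1 genes *Phc2* and *Yaf2* rose by 1.43 and 1.17. *Phc1* and *Ring1* did not pass the test.

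Germline genes that DNA methylation is known to silence fell in part. Of 22 tested (25 listed), 13 fell (59.1%) and 5 rose (22.7%), against 29.6% and 32.5% of all genes. The median was -0.96 after 0.60 on the first day. *Hormad1*, a protein of meiotic chromosome axes, fell from 57.3, 60.8 and 47.9 to 9.03, 12.9 and 5.37 CPM, a log2 fold change of -2.60 (SE 0.259, edgeR adjusted p = 7.86e-06). *Dazl*, an RNA-binding protein of germ cells, fell from 48.7, 48.7 and 47.4 to 9.03, 10.9 and 7.63 CPM, and *Rpl10l*, a testis ribosomal protein, from 84.3, 76.5 and 88.5 to 8.95, 11.3 and 6.46 CPM. None of these overlapped between days. *Sycp3*, of the synaptonemal complex, went the other way, from 10.6, 12 and 11.2 to 31.2, 35.4 and 41.4 CPM, a log2 fold change of 1.68 (SE 0.129, edgeR adjusted p = 2.38e-09), and so did *Ddx4* (Vasa) and *Tdrd1*, by 1.31 and 1.68. *Ddx4* and *Tdrd1* were lower again on day 3, with 22.8 and 6.57 TPM on day 2 and 8.18 and 2.92 TPM on day 3. *Brdt* and *Taf7l* rose by 1.19 and 0.86. The Tuba3 genes of this list share reads and are uncertain.

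The E-box CACGTG, bound by factors that repress such genes, was looked for in both strands of the promoters (250 bases before to 50 bases after the start). It was found in 5 of 5 of the germline genes that rose and in 5 of the 12 that fell and have a promoter in the table. It was also in 11.6% of the genes tested with a promoter and in 8.09% of all genes with a promoter. A match is a description and not a site. The promoters of *Sycp3*, which rose, and *Hormad1*, which fell, both with 2 matches in capitals, are shown to set the 2 directions side by side. They are from RefSeq (GRCm38.p6), at chr10:88459337-88459636 on the plus strand and chr3:95559427-95559726 on the plus strand, 5′ to 3′ in the direction of the gene.
Sycp3: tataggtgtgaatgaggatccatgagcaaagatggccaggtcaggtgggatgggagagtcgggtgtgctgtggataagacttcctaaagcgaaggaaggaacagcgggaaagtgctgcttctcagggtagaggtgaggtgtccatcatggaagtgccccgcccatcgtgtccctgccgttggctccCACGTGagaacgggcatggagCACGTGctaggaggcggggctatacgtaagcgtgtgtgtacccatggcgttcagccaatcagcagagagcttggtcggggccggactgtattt
Hormad1: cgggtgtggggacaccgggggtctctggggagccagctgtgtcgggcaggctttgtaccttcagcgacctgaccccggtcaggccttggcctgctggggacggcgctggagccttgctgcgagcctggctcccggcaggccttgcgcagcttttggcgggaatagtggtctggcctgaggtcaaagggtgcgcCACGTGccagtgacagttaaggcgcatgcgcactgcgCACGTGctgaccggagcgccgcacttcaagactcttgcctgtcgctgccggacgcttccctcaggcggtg

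Of 6 two-cell-like genes tested (11 listed), 4 fell (66.7%, against 29.6% of all genes) and 0 rose. The copies *Zscan4c*, *Zscan4d* and *Zscan4f*, which share reads and are uncertain one by one, fell by 1.20, 1.57 and 1.38. Of 35 imprinted genes tested (36 listed), 16 rose (45.7%) and 7 fell (20%), against 32.5% and 29.6% of all genes, with a median of 0.52. *Grb10*, an adaptor that dampens growth factor signalling, rose from 91.5, 93.8 and 76.9 to 301, 323 and 357 CPM, a log2 fold change of 1.90 (SE 0.105, edgeR adjusted p = 7.82e-10). The maternal noncoding RNAs of the *Dlk1* region, *Meg3*, *Rian* and *Mirg*, rose by 1.17, 1.08 and 0.74, and *Ndn* and *Nnat* by 1.55 and 1.29. *Peg10*, which comes from a retrotransposon, fell from 209 to 84.9 TPM, *Kcnq1ot1* by 1.56 and *Cdkn1c* by 0.97. *H19* and *Igf2* did not pass, at 6.52 and 4.69 TPM.

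Most amino acid response genes under Atf4 rose. Atf4 is a transcription factor made when amino acids run short or proteins misfold, and it turns on genes for amino acid synthesis, transport and redox balance. Of 35 genes tested (36 listed), 23 rose (65.7%, against 32.5%) and 8 fell, with a median of 0.89 after -0.75 on the first day. *Atf4* itself rose from 161, 181 and 177 to 219, 233 and 225 CPM, a log2 fold change of 0.38 (SE 0.074, edgeR adjusted p = 0.000181). The serine synthesis genes *Psat1*, *Phgdh* and *Psph* rose 3.18-fold, 2.13-fold and 2.02-fold, *Psat1* from 131, 132 and 134 to 409, 419 and 433 CPM. The proline genes *Aldh18a1* and *Pycr1* rose by 1.34 and 1.27 on the log2 scale, and the mitochondrial folate genes *Mthfd2* and *Aldh1l2* by 0.89 and 2.10. *Chac1*, which degrades glutathione, rose from 2.46, 2.28 and 1.55 to 29.3, 23.9 and 23.4 CPM, a log2 fold change of 3.59 (SE 0.17, edgeR adjusted p = 3.04e-12). *Nupr1*, a small stress-induced chromatin protein, rose from 0.819, 1.37 and 1.06 to 10.1, 10.1 and 9.81 CPM, and *Vldlr*, a lipoprotein receptor that Atf4 is known to induce, from 0.372, 1.44 and 0.326 to 23.9, 21.6 and 20.2 CPM, with library 2 of day 1 above the other 2. The log2 fold change of *Vldlr* was 4.91, and 5.93 without that library. The days did not overlap in any of these.

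The stress regulators of the list rose with the enzymes. *Ddit4* (Redd1), an inhibitor of mTORC1, rose from 37.1, 28.3 and 24 to 204, 139 and 157 CPM, a log2 fold change of 2.48 (SE 0.33, edgeR adjusted p = 0.000185). *Trib3*, *Ddit3* (Chop), *Cebpb*, *Atf3* and *Stc2* rose by 1.75, 2.02, 2.46, 2.74 and 2.80. The transporters went both ways. *Slc6a9*, for glycine, and *Slc7a11*, for cystine, rose by 2.50 and 1.76, while *Slc38a2* (Snat2), for neutral amino acids, fell from 1173, 1163 and 1155 to 491, 559 and 371 CPM and *Slc7a3*, for arginine, from 321 to 156 TPM. *Cth*, which makes cysteine, fell 2-fold. *Asns*, asparagine synthetase, rose by 0.22 and stood at 621, 199.7, 253 and 245 TPM on days 0 to 3. *Sesn2* and *Ppp1r15a*, also of this list, did not pass.

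The composite element of the amino acid response, TGATGNAAN, was looked for in both strands of the same promoters. It was found in 8 of 22 of the genes of the list that rose and have a promoter in the table (36.4%) and in 0 of 5 that fell. It was also in 2.75% of the genes tested with a promoter (312 of 11354) and in 4.51% of all genes with a promoter. The genes of the list that rose and held it were *Atf3*, *Chac1*, *Trib3*, *Slc7a11*, *Asns*, *Nupr1*, *Pycr1* and *Vldlr*. The list was drawn from known Atf4 targets, some of them known through this element. The promoters of *Vldlr*, *Chac1* and *Nupr1* are shown because these are the 3 largest rises with a match, and that of *Slc7a11* because it holds 2 matches. The matched bases are in capitals and read in reverse complement where the match is on the opposite strand, with the free last position left out. They are from RefSeq (GRCm38.p6), 5′ to 3′ in the direction of the gene, in that order at chr19:27216770-27217069 (plus strand), chr2:119350992-119351291 (plus strand), chr7:126625421-126625720 (minus strand) and chr3:50443564-50443863 (minus strand).
Vldlr: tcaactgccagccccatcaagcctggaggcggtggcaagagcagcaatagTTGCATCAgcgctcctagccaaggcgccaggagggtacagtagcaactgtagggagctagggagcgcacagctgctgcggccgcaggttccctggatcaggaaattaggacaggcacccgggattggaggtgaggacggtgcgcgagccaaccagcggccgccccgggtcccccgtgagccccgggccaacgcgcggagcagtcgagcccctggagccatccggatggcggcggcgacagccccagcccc
Chac1: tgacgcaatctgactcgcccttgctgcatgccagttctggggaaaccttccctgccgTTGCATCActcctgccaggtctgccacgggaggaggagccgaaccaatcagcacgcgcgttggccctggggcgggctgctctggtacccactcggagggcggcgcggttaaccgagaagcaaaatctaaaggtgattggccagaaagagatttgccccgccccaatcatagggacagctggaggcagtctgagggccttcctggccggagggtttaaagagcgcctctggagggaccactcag
Nupr1: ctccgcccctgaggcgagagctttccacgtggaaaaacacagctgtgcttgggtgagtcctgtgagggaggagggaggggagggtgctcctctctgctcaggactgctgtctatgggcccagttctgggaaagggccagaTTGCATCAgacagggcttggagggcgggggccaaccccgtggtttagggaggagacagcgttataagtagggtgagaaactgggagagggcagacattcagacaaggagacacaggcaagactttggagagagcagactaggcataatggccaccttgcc
Slc7a11: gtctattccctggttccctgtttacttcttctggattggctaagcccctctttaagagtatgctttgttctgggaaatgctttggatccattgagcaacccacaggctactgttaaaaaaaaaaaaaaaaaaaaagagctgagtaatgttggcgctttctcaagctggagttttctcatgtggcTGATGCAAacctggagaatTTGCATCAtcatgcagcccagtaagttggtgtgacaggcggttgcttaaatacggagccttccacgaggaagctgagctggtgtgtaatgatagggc

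The genes that charge tRNA did not move with the Atf4 list as a whole. Of 20 cytosolic synthetase genes tested (21 listed), 8 rose and 8 fell (40% each, against 32.5% and 29.6% of all genes), all by less than 2-fold. *Sars*, *Nars*, *Gars*, *Iars* and *Cars* rose by 0.85, 0.56, 0.55, 0.46 and 0.44, and *Rars*, *Farsa* and *Hars* fell by 0.39, 0.34 and 0.31.

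Glycolysis genes rose at several steps. Of 31 tested, 13 rose (41.9%, against 32.5%) and 11 fell (35.5%, against 29.6%). *Slc2a1* (Glut1), the glucose transporter of most growing cells, rose from 301, 247 and 236 to 1024, 1009 and 995 CPM, a log2 fold change of 1.95 (SE 0.126, edgeR adjusted p = 7.56e-08), and *Slc2a3* (Glut3) rose from 45.4 to 123 TPM after 513 TPM on day 0. *Pfkl*, *Aldoc*, *Tpi1*, *Pgk1*, *Eno2* and *Ldha* rose by 1.40, 1.89, 0.83, 1.10, 1.93 and 0.99, and *Ldha* stood at 747, 683 and 539 CPM on day 1 and 1350.2, 1352 and 1206 CPM on day 2. For *Slc2a1*, *Ldha* and *Pgk1* all day 2 libraries lay above all day 1 libraries. The phosphofructokinase genes split, as *Pfkp* and *Pfkm* fell by 1.44 and 0.69. Genes of the pentose phosphate branch, *G6pdx*, *Pgd*, *Taldo1* and *Tkt*, fell by 0.16 to 0.42. *Gapdh*, often used as a constant gene, did not pass, at 7966 and 8476 TPM, and *Hif1a* fell by 0.25 while its known target *Bnip3* rose by 1.16.

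Some lipid genes rose. Of 27 cholesterol genes, 12 rose (44.4%), 5 fell (18.5%) and 10 did not pass, against 32.5% and 29.6% of all genes, with a median of 0.15. The synthesis genes *Hmgcs1*, *Fdps*, *Lss* and *Msmo1* rose by 0.32, 0.42, 0.47 and 0.54. The sterol element TCACNCCAC was in the promoter of 1 of the 19 genes of this list that have one in the table (*Hmgcs1*) and of 1.44% of the genes tested. Of 19 fatty acid genes tested (20 listed), 10 rose (52.6%, against 32.5% of all genes), 1, *Elovl6*, fell and 8 did not pass. *Scd2*, *Scd1*, *Fads2* and *Srebf1* were higher by 0.54, 0.48, 0.39 and 0.44.

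The mTORC1 regulators, which the study's screens concern, moved little. Of 49 genes of mTORC1, its regulators, Gsk3 and Akt, 13 rose (26.5%) and 15 fell (30.6%), against 32.5% and 29.6% of all genes, with a median of -0.06. Of the Gator1 genes, *Depdc5* and *Nprl3* rose by 0.57 and 0.48, and *Nprl2* fell by 0.42. *Tsc2* fell from 173, 171 and 187 to 117, 126 and 119 CPM, a log2 fold change of -0.55 (SE 0.0665, edgeR adjusted p = 8.75e-07), and its partner *Tsc1* rose by 0.22 (edgeR adjusted p = 0.0205), a call that DESeq2 did not make (adjusted p = 0.0632). *Gsk3b* rose by 0.56 and *Gsk3a* did not pass. The GTPase gene *Rragd* rose by 0.99, *Tfe3*, a factor that Flcn and the Rag GTPases keep in the cytoplasm, fell by 0.71, and *Mtor*, *Rptor*, *Rictor* and *Rheb* did not pass.

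Lysosome genes rose in part. Of 42 tested, 19 rose (45.2%) and 10 fell (23.8%), against 32.5% and 29.6% of all genes, with a median of 0.18 after -0.62 on the first day. *Naglu* and *Sgsh*, which degrade heparan sulfate, rose by 2.80 and 1.86 (*Naglu* by 3.62 without library 1 of day 1), and *Npc1*, *Neu1*, *Gusb*, *Lamp2* and *Hexa* by 1.30, 1.30, 1.23, 1.14 and 0.90. The proton pump genes *Atp6v1h*, *Atp6v1c1*, *Atp6v1a* and *Atp6v1d* fell by 0.26 to 0.57. Of 12 iron genes, 8 fell (66.7%) and 3 rose (25%), against 29.6% and 32.5% of all genes. *Ncoa4*, the receptor that delivers ferritin to lysosomes, and *Hmox1*, heme oxygenase, fell by 1.16 and 1.14, whereas *Tfrc*, *Slc11a2* and the iron exporter gene *Slc40a1* rose by 0.28, 0.38 and 0.62.

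**Figure D5:**
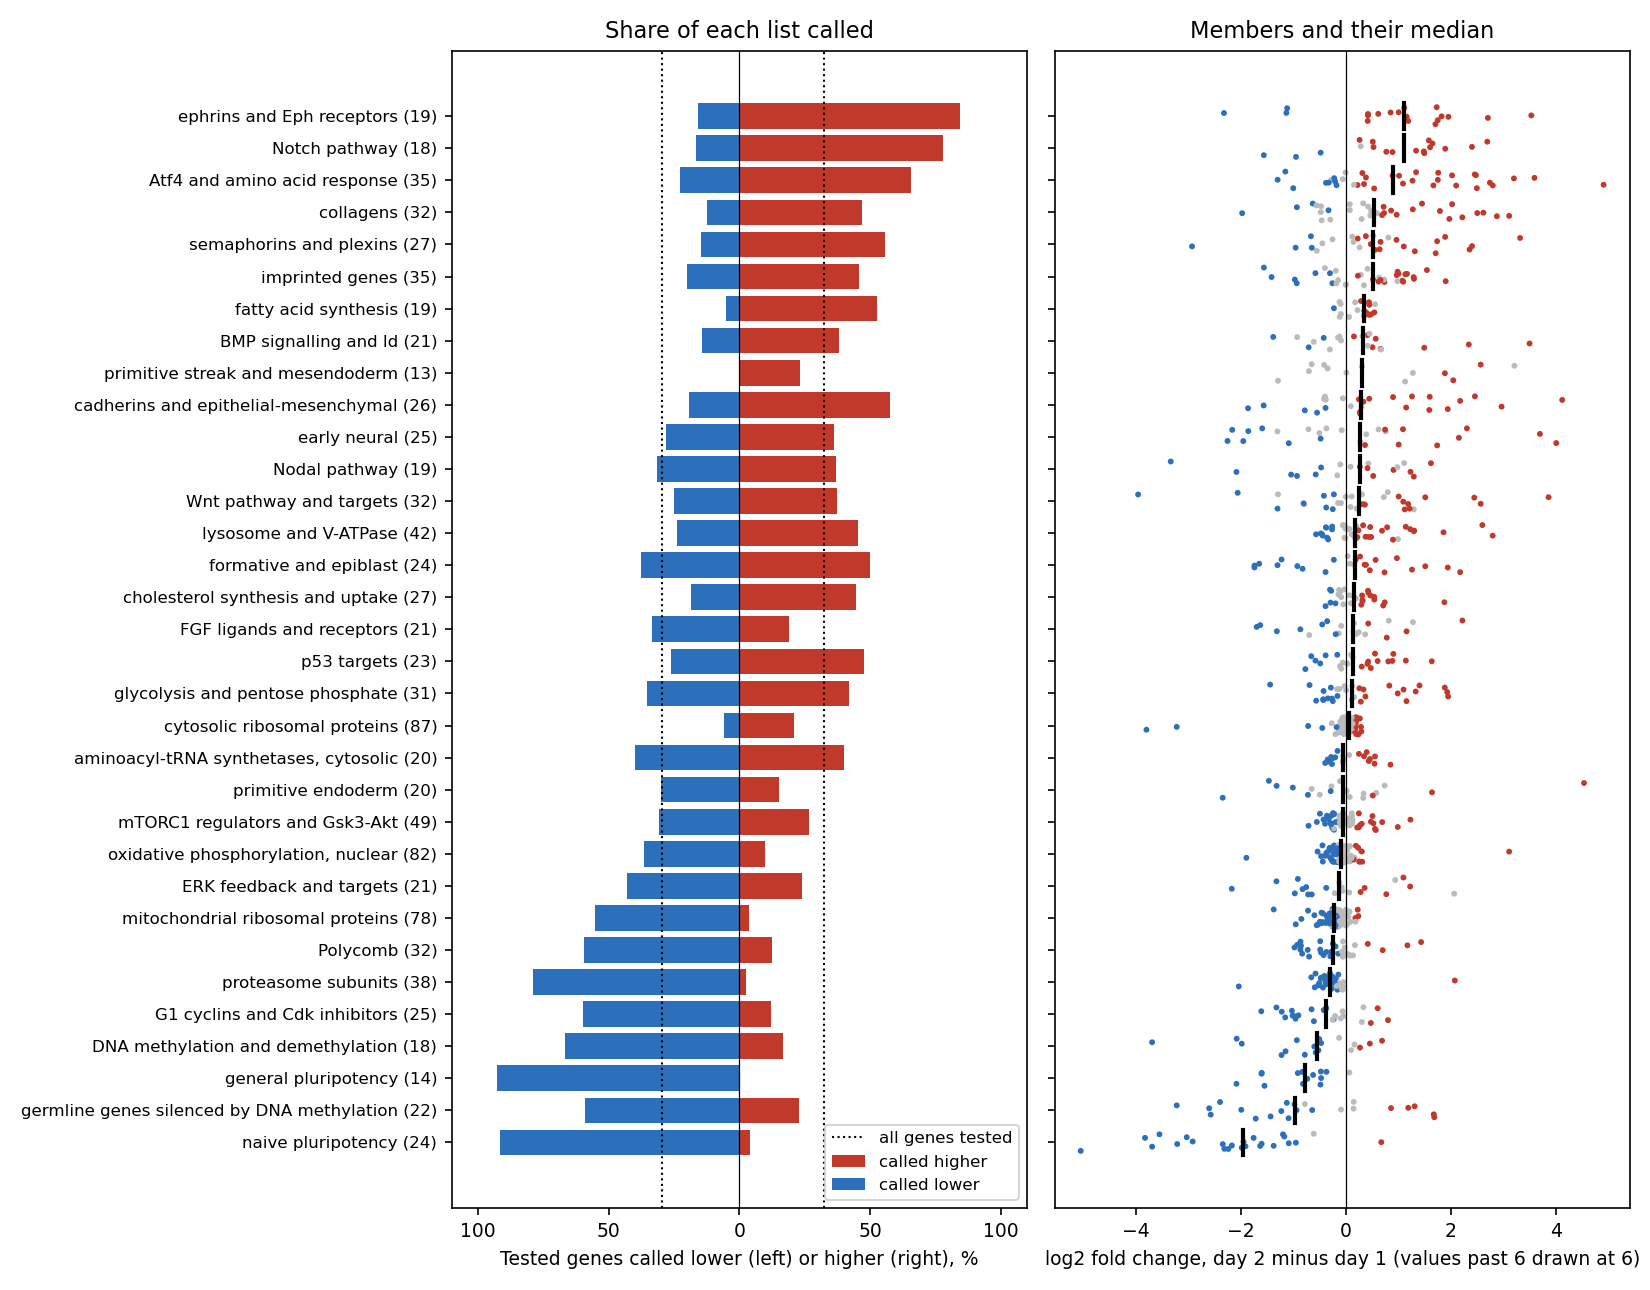
Gene lists in order of their median, with the number of tested genes in brackets. Left, share of each list called higher (red, to the right) or lower (blue, to the left), with dotted lines at the shares of all genes tested (32.5% and 29.6%). Right, log2 fold change of each tested gene (grey where not called), with a black bar at the median of the list, from -1.96 for naive pluripotency to 1.11 for Notch and for ephrins.

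Machines of protein synthesis and breakdown moved by small, shared amounts, which are read against the median of all genes because scaling matters at this size. Of 38 proteasome genes tested (39 listed), 30 fell (78.9%, against 29.6%) and 1 rose, with a median of -0.30. That gene was *Psmb9*, an immunoproteasome subunit, higher by 2.08, and *Psma8*, the testis subunit, had the largest fall (-2.04). Relative to all genes, the median of this list was -0.32, and it lay between -0.36 and -0.29 under all alternatives run. Of 78 mitochondrial ribosomal protein genes, 43 fell (55.1%) and 3 rose (3.85%), against 29.6% and 32.5% of all genes, with a median of -0.22. Relative to all genes, the median of this list lay between -0.26 and -0.20 under these alternatives. *Mrpl14* and *Mrps12* fell most, by 1.37 and 0.95. Of 87 cytosolic ribosomal protein genes tested (88 listed), 18 rose (20.7%, against 32.5% of all genes), 5 fell (5.75%) and 64 did not pass, with a median of 0.05. The number called depends on the scaling, with 46 under upper-quartile scaling, 62 with limma on log2(TPM + 1) and 15 without library 3 of day 1. *Rpl39l* and *Rpl10l*, copies known from testis, fell by 3.79 and 3.22, and these 2 alone changed at least 2-fold. Of 82 nuclear genes of oxidative phosphorylation tested (87 listed), 30 fell (36.6%) and 8 rose (9.76%), against 29.6% and 32.5% of all genes. Their median was -0.09. *Ndufa4l2*, which hypoxia is known to induce, rose by 3.11, and *Cox7b2* fell by 1.89.

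Cell cycle genes of G1 fell and p53 targets went in both directions. Of 25 G1 genes, 15 fell (60%, against 29.6%) and 3 rose, with a median of -0.38. *Ccnd3* (cyclin D3) fell from 145, 134 and 157 to 48.5, 43.7 and 50.7 CPM, a log2 fold change of -1.61 (SE 0.107, edgeR adjusted p = 4.22e-09), and *Ccne1* (cyclin E1), *Mycn* and *E2f1* fell by 0.96, 0.90 and 0.61. The inhibitor genes *Cdkn1a* (p21), *Cdkn1b* (p27) and *Rb1* were the 3 that rose, by 0.61, 0.80 and 0.48, while the inhibitor genes *Cdkn2a* and *Cdkn1c* fell by 1.15 and 0.97. Of 23 p53 target genes tested (24 listed), 11 rose (47.8%) and 6 fell (26.1%), against 32.5% and 29.6% of all genes. *Perp*, *Btg2*, *Apaf1* and *Bbc3* (Puma) rose by 1.64, 1.14, 0.91 and 0.89, *Bax* fell by 0.58, and *Trp53* itself fell from 381, 393 and 416 to 237, 222 and 239 CPM. *Mdm2* did not pass the test.

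Smaller gene families are given by their counts, and nothing particular to a family is read from them, since 32.5% of all genes rose and 29.6% fell. Of 17 retinoic acid genes tested (19 listed), 5 rose (29.4%) and 6 fell (35.3%). The receptor genes *Rarg* and *Rara* fell by 1.34 and 0.85, and *Stra6*, a retinol uptake receptor, rose by 1.48, and by 2.39 without library 1 of day 1. Of 16 genes of the Lin28 and let-7 axis, 4 rose (25%) and 3 fell (18.8%), with *Lin28b* higher by 1.12 and *Trim71* lower, with a log2 fold change of -0.79. Among families of transcription factors, 7 of 16 Sox genes rose (43.8%) and 3 fell (18.8%), 1 of 9 Pou genes rose and 4 fell, and 2 of 4 Zic genes rose and 1 fell. In the same way 8 of 16 Klf genes rose (50%) and 5 fell (31.2%), 9 of 27 Fox genes rose (33.3%) and 7 fell (25.9%), 3 of 9 T-box genes rose and 3 fell, and 0 of 4 Gata genes rose and 2 fell. *Sox10*, a neural crest factor, rose from at most 1 count in a day 1 library to 1.28, 0.38 and 1.01 CPM and *Sox9* by 1.03 on the log2 scale, a call that DESeq2 did not make (adjusted p = 0.0991). *Foxo3* rose by 0.78 and *Foxo1* fell by 0.41. Of 9 Wnt ligand genes tested, 3 rose and 1 fell, of 13 Fgf ligand genes 3 rose and 4 fell, and of 9 claudin genes 4 rose and 2 fell.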

How the data were processed

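RNA-seq libraries of days 1 and 2 (3 per day, grouped by the day in the labels) were compared. The authors deposited, per library, estimated counts and TPM for each RefSeq transcript. The submitters' processing notes name kallisto 0.42.1, mm10 and DESeq2. Deposited tables of fold changes and p-values compare knockout with wild-type cells and were not used, nor were 6 columns of a deposited TPM table that match no sample label.

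Estimated counts were summed from transcripts to genes (34079 transcripts, of which 33713 were matched through RefSeq, 192 through GENCODE and 174 left out, with 2.5% to 3.57% of counts) and rounded to whole numbers, giving 24296 genes. Estimated counts split reads between similar copies, which makes paralogs uncertain. Genes with low counts were removed with filterByExpr, libraries were scaled by TMM, and all 12 time-course libraries were fitted together in edgeR 4.0.16 (R 4.3.3, quasi-likelihood test, 8 residual degrees of freedom). P-values were adjusted by Benjamini-Hochberg over the 14382 genes, with a threshold of 0.05. No replicate block was used. On simulated counts for 14076 genes, of which 200 were changed, this fit recovered 62.7%, 83.6% and 98.5% of changes of 0.5, 1 and 2 on the log2 scale, with 13 false calls. A far larger share of genes was called in the data (62.1%), so these rates describe the simulated setting and not this comparison.

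Totals were 12503005 to 15305054 counts per library, and all counting limits cover counting error only. Named genes were the 15 largest rises and falls among called genes with a mean of at least 1 on the log2 CPM scale and no overlap between days, the genes passing between at most 3 counts in each library and at least 1 CPM, the 10 largest gains and losses in TPM, and members of 54 gene lists. Some genes that this rule names are not reported here. The comparison and the lists were chosen with earlier results of these data known. Alternatives were DESeq2 1.42.0, upper-quartile scaling, other filters, 6 libraries only, a replicate block, limma 3.58.1 on log2(TPM + 1) and log2(TPM + 0.1), a transcript length offset and leaving out each library. Figures were drawn with matplotlib 3.10.9.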

Additional observations from a re-analysis of the deposited data

Results flagged for a closer look

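The change over the second day differed from that over the first day in 8388 genes and from that over the third day in 4741 genes, by edgeR tests of the difference. These steps share libraries, so a low or high day 1 enters both. Among the genes named above, some fell and then rose, or rose and then fell, at least 4-fold each, with more than 3 counts in every library of days 0 to 2. Over all genes, 41 fell and then rose in this way and 17 rose and then fell.

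The genes that fell and then rose are given by the log2 fold change of the first day, that of the second, and the second minus the first. *Nupr1* had -4.73, 3.20 and 7.93. *Vldlr* had -3.01, 4.91 and 7.92. *Jph3* had -2.27, 4.58 and 6.85. *Hes1* had -3.71, 2.40 and 6.11. *Sema3b* had -2.75, 3.32 and 6.07. *Chac1* had -2.46, 3.59 and 6.05. *Bmp7* had -2.99, 2.34 and 5.34. *Tubb3* had -2.98, 2.15 and 5.14. *Lamb3* had -2.25, 2.63 and 4.88. *Nrarp* had -2.03, 2.69 and 4.73. In the other direction, given in the same way, *Plxna4* had 2.98, -2.93 and -5.91.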

How the results depend on the processing

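Of the overall results, 514 values under an alternative moved by less than the spread between replicates (counts by less than 1.5 times), and 24 moved further. For the gene lists outside these overall results, another 154 values moved further. With at least 10 counts required in all 12 libraries, 3816 genes were higher and 3464 lower, and 1570 changed at least 2-fold (1080 higher, 490 lower). Under this filter the number called passed from 17 to 5 for protocadherins, 19 to 10 for collagens and 16 to 10 for early neural genes. It passed from 3 to 0 for primitive streak genes and from 23 to 36 for cytosolic ribosomal proteins. Under limma on log2(TPM + 1) the calls were 5639 higher and 3203 lower, with 1815 at least 2-fold (1248 higher, 567 lower), and on log2(TPM + 0.1) 5628 and 3170. Upper-quartile scaling gave 5392 higher and 3495 lower and moved the median of all genes by 0.08 on the log2 scale. DESeq2 called 4268 genes higher and 4291 lower. Fewer genes are tested under the stricter filter, and a pseudocount of 1 shrinks the changes of low genes. List medians minus that of all genes, with the main value first, were as follows under the stricter filter and limma on log2(TPM + 1). Naive genes gave -1.99, then -1.74 and -1.67, Notch 1.09, then 0.84 and 0.68, ephrins 1.09, then 0.87 and 0.69, Atf4 targets 0.87, then 0.55 and 0.71, and imprinted genes 0.50, then 0.39 and 0.28. DNA methylation genes gave -0.57, then -0.53 under the stricter filter. The cause of these shifts was not tested beyond this.

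With 1 library left out, the calls were 4283 to 4532 higher and 3864 to 4214 lower. The medians ranged from -2.13 to -1.96 for naive genes, from 0.82 to 0.96 for Atf4 targets and from 0.39 to 0.59 for imprinted genes. Of the 366 called genes named here, 20 lost their call without at least 1 library, between 7 (library 2 of day 2) and 15 (library 2 of day 1) at a time. They were *Asns*, *Bnip3*, *Dll1*, *Dusp6*, *Epcam*, *Gata6*, *Id1*, *Id3*, *Junb*, *Nanog*, *Rpl26*, *Snai1*, *Socs3*, *Sox12*, *Sox4*, *Sox9*, *Spry1*, *Spry4*, *Tfrc* and *Tsc1*, with edgeR adjusted p between 0.0512 and 0.257 (*Id3*, without library 1 of day 2). Under the other alternatives 16 of the named calls were lost. They were *Id1*, *Sox9* and *Tsc1* with DESeq2, *Dll1*, *Id1*, *Id3* and *Tkt* under upper-quartile scaling, *Dll1*, *Dusp6*, *Epcam*, *Id1*, *Nanog* and *Tfrc* without a filter, *Dll1* and *Id3* under the stricter filter, *Id3* with 6 libraries only, *Dusp6* and *Spry4* with a replicate block, *Brdt* with a transcript length offset, and *Cdh2*, *Dll1*, *Elovl6*, *Hif1a*, *Id3* and *Tkt* with limma at both pseudocounts (*Hoxc4* at a pseudocount of 1). None of the named calls changed direction under the alternatives run. Leaving out 1 library moved the fold of 29 called genes named here by over 1.5 times. Besides those given with their values above, they were *2410137M14Rik*, *4930591A17Rik*, *Cdx4*, *Cldn2*, *Edn2*, *Efna1*, *Fut1*, *Gata3*, *Gata6*, *Grin1*, *Hes3*, *Il17b*, *Inhbb*, *Itgb8*, *Mixl1*, *Nlrp4a*, *Prdm14*, *Rgl3*, *Rnf43*, *Scara3*, *Sox10*, *Sytl3* and *Tbx6*, all with few counts on 1 of the days. Under a replicate block, 4674 genes were higher and 4287 lower, and the median of imprinted genes was 0.60. Labels share replicate numbers but do not say that a number marks a shared culture, and the deviations of same-numbered libraries of days 1 and 2 correlated at 0.08, -0.01 and 0.07, so the numbers were not taken to pair them. Library 2 of day 1 correlated best with library 3 of day 2 (0.03). Depth limits low genes most, since 3 counts are 0.196 to 0.24 CPM before TMM.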
